A study of Mus musculus with 3 samples.

Results

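The 10 genes described here encode proteins that a maturing neutrophil packs into its late granules, together with the S100a8 and S100a9 pair. They are S100a8, S100a9, Ltf, Ngp, Camp, Lcn2, Mmp8, Mmp9, Cd177 and Itgb2l, 10 of the 28074 gene symbols in the table. The set was chosen by function and by symbol, with the values of these genes in the same 3 leukemias already known, so their levels and their differences between mice are a description and carry no test. All 10 had a row of their own, and all 10 stood above a mean of 1 TPM, the level used below to select background genes. TPM is transcript abundance corrected for transcript length and scaled to a common total per library.

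The RNA came from the leukemic spleens of 3 moribund mice with primary acute myeloid leukemia, 1 library per mouse. All 3 mice carried the genotype miR196b-/-Dnmt3afl/fl,Flt3ITD/ITD,Mx1Cre, in which the microRNA miR-196b is deleted, both Dnmt3a alleles are floxed, both Flt3 alleles carry an internal tandem duplication, and Cre recombinase is driven by the interferon-inducible Mx1 promoter. The sample titles instead give Dnmt3a as +/-, and the age of the animals was not given in the sources used here. Red blood cells were lysed and c-Kit+ cells were enriched with CD117 magnetic beads, so that immature cells were favoured over mature neutrophils, which lack c-Kit. Leukemias with miR-196b intact were not analysed here, and no genotype difference is described. The numbers 1, 2 and 3 only name the mice, which form 1 group. The deletion of miR-196b was not checked here. Dnmt3a stood at 52.2, 64.9 and 54.6 TPM over the whole gene, which does not check its floxed part.

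Neutrophil granules are filled in a fixed sequence as the cell matures. Primary granules, with myeloperoxidase and the serine proteases, form in promyelocytes, secondary granules with lactoferrin and cathelicidin form in myelocytes, and tertiary granules with gelatinase form later. The transcription factor C/EBP epsilon, encoded by Cebpe, is required in mice for the secondary granule proteins. S100A8 and S100A9 are small calcium-binding proteins that pair as calprotectin, fill the cytoplasm of neutrophils and bind zinc and manganese.

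The genes are spread over chromosomes 2, 3, 7, 9 and 16. In RefSeq on GRCm38.p6, the assembly that corresponds to the mm10 build named in the submitters' processing notes, S100a8 (chr3:90669071-90670034) and S100a9 (chr3:90692630-90695721) lie on chromosome 3 with 22595 bases between them. Camp (chr9:109847377-109849456), Ngp (chr9:110419808-110423012) and Ltf (chr9:111019292-111042766) lie within one stretch of chromosome 9. The gap is 570351 bases from Camp to Ngp and 596279 bases from Ngp to Ltf. Mmp8 (chr9:7558429-7568486) is elsewhere on chromosome 9. Lcn2 (chr2:32384637-32387739) and Mmp9 (chr2:164940326-164955850) are far apart on chromosome 2, Cd177 (chr7:24743983-24760334) is on chromosome 7 and Itgb2l (chr16:96422288-96443664) on chromosome 16. All 10 are protein-coding, and their annotated exons in GENCODE M21 overlap no exon of another gene on either strand.

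The sequence before the start is shown for the 3 most abundant members and for the 2 with the widest spread. It covers 150 bases for each, 5′ to 3′ on the strand of the gene, from the RefSeq promoter table on GRCm38.p6. Capitals mark each match to TTNNGNAA or to its other strand TTNCNNAA, a loose form of the palindrome bound by C/EBP factors.
S100a8 (chr3:90668921-90669070, plus strand): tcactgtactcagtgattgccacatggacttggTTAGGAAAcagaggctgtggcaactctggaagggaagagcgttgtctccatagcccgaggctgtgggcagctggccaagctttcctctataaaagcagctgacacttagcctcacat
S100a9 (chr3:90695722-90695871, minus strand): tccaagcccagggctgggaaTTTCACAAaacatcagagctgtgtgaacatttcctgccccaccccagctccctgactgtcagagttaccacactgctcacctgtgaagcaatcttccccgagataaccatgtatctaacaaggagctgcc
Ltf (chr9:111019142-111019291, plus strand): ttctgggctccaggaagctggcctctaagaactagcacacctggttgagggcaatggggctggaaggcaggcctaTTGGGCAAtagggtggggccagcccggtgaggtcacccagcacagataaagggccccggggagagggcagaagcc
Ngp (chr9:110419658-110419807, plus strand): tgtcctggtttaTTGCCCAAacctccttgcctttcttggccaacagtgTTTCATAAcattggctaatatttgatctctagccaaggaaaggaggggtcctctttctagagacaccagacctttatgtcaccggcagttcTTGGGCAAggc
Camp (chr9:109849457-109849606, minus strand): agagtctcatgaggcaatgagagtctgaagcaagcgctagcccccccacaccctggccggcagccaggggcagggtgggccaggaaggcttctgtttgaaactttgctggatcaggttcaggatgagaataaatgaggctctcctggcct
S100a8 and S100a9 each hold 1 match in the stretch shown, Ltf holds 1, Ngp holds 3 and Camp holds none. Over the full 250 bases before the start, 8 of the 9 members with a window in the table held a match, the exception being Camp. The windows of Cd177 (chr7:24760312-24760561) and Itgb2l (chr16:96443615-96443864) reach slightly into the gene positions given above. A match was found in 12104 of 32851 windows of that length (36.8%), which were not matched to the members for base composition. A match says only that these letters are present, and binding was not measured.

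All 10 genes were highest in mouse 3, lowest in mouse 1 and intermediate in mouse 2. Over the 15181 genes with a mean of at least 1 TPM, 20.3% were highest in mouse 3 and 9.93% had this order of mice. These shares give the scale and support nothing, since the set was assembled with the order known. Together the 10 genes took 0.267% of the summed TPM in mouse 1, 0.700% in mouse 2 and 2.32% in mouse 3. Their sums were 2481, 6490 and 21585 TPM. In bulk RNA, fewer cells of a type and less RNA per cell cannot be told apart.

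**Figure D1:**
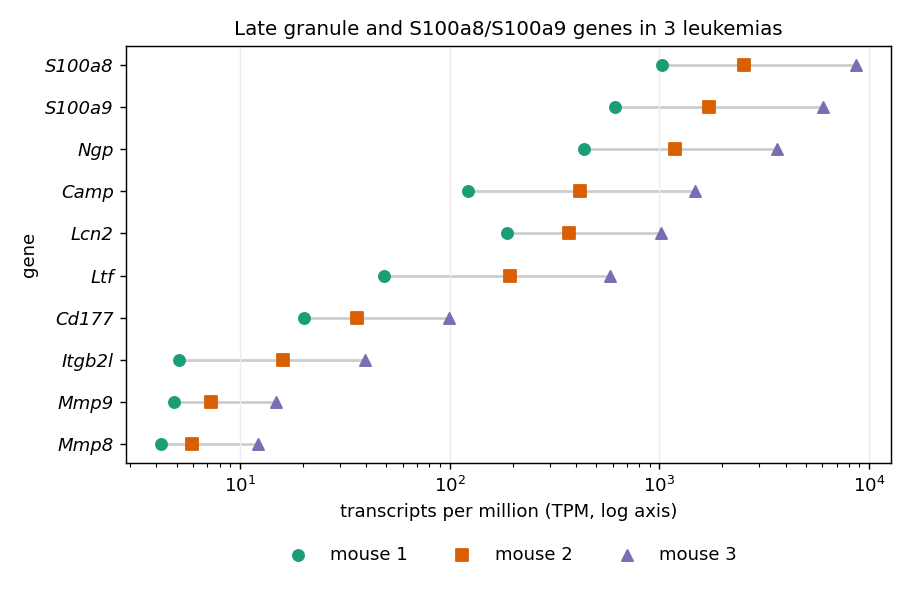
TPM of the 10 late granule and S100a8/S100a9 genes (log axis), 1 point per mouse, with a grey line from the lowest to the highest mouse. Every gene runs from mouse 1 at the left to mouse 3 at the right, and the line is shortest for Mmp8 and Mmp9.

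S100a8 and S100a9 were the most abundant. S100a8 stood at 1034, 2529 and 8646 TPM in mice 1, 2 and 3, and S100a9 at 616, 1719 and 6057 TPM. Among all symbols S100a8 ranked 121 in mouse 1, 26 in mouse 2 and 4 in mouse 3. S100a9 ranked 196, 46 and 11. The 2 genes made up 66.5%, 65.5% and 68.1% of the summed TPM of the set, a share that differed little although the sum itself differed 8.70-fold between mice 3 and 1. The ratio of S100a8 to S100a9 was 1.68, 1.47 and 1.43, so the partners of calprotectin kept nearly the same proportion in all 3 leukemias.

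Ngp was the most abundant of the secondary granule genes in all 3 mice. Ngp, a neutrophilic granule protein of the cathelicidin family, stood at 438, 1193 and 3639 TPM. Camp, which encodes the mouse cathelicidin, stood at 122, 417 and 1480 TPM. Ltf, which encodes the iron-binding protein lactoferrin, stood at 48.8, 193 and 580 TPM. Camp and Ltf differed most between mice of all 10 genes, with 12.2-fold and 11.9-fold higher TPM in mouse 3 than in mouse 1. Ngp was 8.31-fold higher. The ratio of Ngp to Camp was 3.60, 2.86 and 2.46 in mice 1, 2 and 3.

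Lcn2, which encodes neutrophil gelatinase-associated lipocalin, a protein that captures bacterial siderophores, stood at 188, 373 and 1016 TPM. It was 5.41-fold higher in mouse 3 than in mouse 1. Lcn2 was more abundant than Camp in mouse 1 and less abundant in mouse 3. The order of these genes within a leukemia was thus not the same in all 3.

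The surface proteins Cd177 and Itgb2l were less abundant. Cd177, a glycolipid-anchored protein of neutrophil membranes and secondary granules, stood at 20.2, 36.2 and 99.0 TPM. Itgb2l, an integrin beta 2-like gene, stood at 5.11, 16.1 and 39.6 TPM. Mouse 3 exceeded mouse 1 by 4.89-fold for Cd177 and by 7.74-fold for Itgb2l. Cd177 was the only member with near-identical stretches in transcripts of other genes by the limits used, namely Gm4763 (96.0% identity over 303 bases) and BC049730 (95.6% over 275 bases), and both were listed at 0 in all 3 mice.

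The metalloproteinase genes were the least abundant and the least different. Mmp8, the neutrophil collagenase of secondary granules, stood at 4.21, 5.89 and 12.2 TPM. Mmp9, the gelatinase of tertiary granules, stood at 4.87, 7.29 and 14.9 TPM. Mouse 3 exceeded mouse 1 by 2.91-fold and 3.05-fold. In mouse 1 Mmp8 was above 21.9% and Mmp9 above 24.6% of the background genes, while S100a8 was above 99.2%.

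On the log2(TPM + 1) scale, which understates the differences of low genes, the 10 genes had a median of 6.29 in mouse 1, 8.07 in mouse 2 and 9.59 in mouse 3. These medians average 7.98 ± 1.65 (SD, n = 3). The SD between mice of single members ran from 0.69 for Mmp8 to 1.80 for Camp. The median SD was 1.45 for the set and 0.21 over all background genes. The members differed by a median of 1.37 log2 units between mice 2 and 1, of 1.51 between mice 3 and 2, and of 2.89 between mice 3 and 1. Over all background genes these medians were -0.08, -0.05 and -0.13, so the typical gene sat slightly lower in mouse 3. Scaling every mouse to a common upper quartile brought the last of them to 0.02 and the median of the set to 3.04. It also moved the share of background genes highest in mouse 3 from 20.3% to 32.3%, and the share with the order of the set from 9.93% to 16.6%.

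A difference of at least 2-fold on this scale between mice 3 and 1 was present in 10 of the 10 genes, against 2.54% of background genes. Between mice 3 and 2 it was present in 8, against 1.59%, and Mmp8 and Mmp9 lay just below it at 0.94 each. Between mice 2 and 1 it was present in 6, against 2.55%. The 4 below it there were Lcn2 (0.99), Cd177 (0.81), Mmp9 (0.50) and Mmp8 (0.40). The step from mouse 1 to mouse 2 was the larger one for Ltf (1.97 against 1.58) and Itgb2l (1.48 against 1.25), and the smaller one for the other 8.

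**Figure D2:**
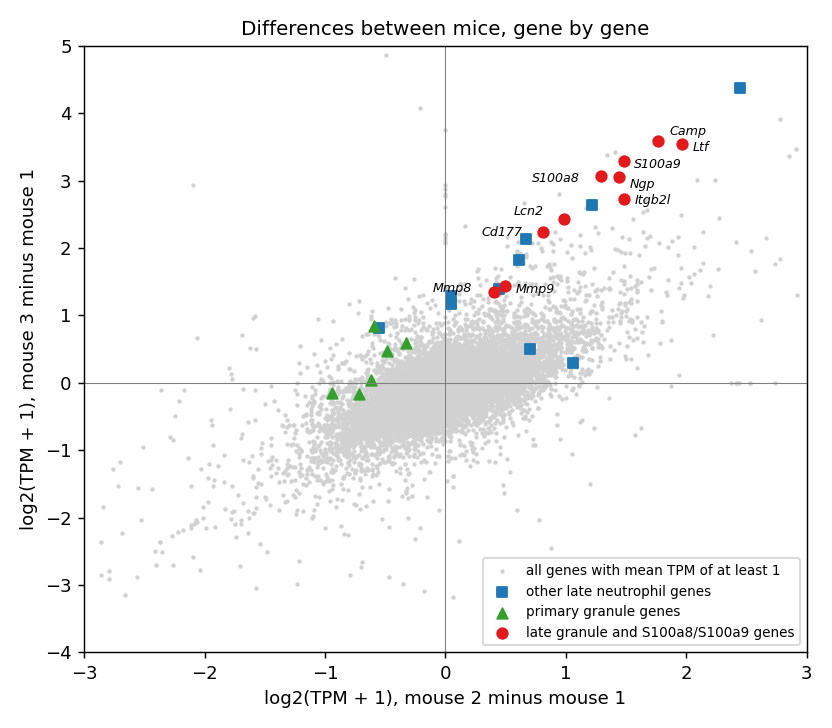
Difference in log2(TPM + 1) of mouse 2 from mouse 1 (x axis) and of mouse 3 from mouse 1 (y axis), 1 point per gene: grey, all genes with a mean of at least 1 TPM (28 of them lie outside the axes); red circles, the 10 late granule and S100a8/S100a9 genes; blue squares, other late neutrophil genes; green triangles, primary granule genes. The red points lie in the upper right, from Mmp8 at 1.34 to Camp at 3.59 on the y axis, while all 6 green points lie left of 0.

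The primary granule genes had another pattern. Mpo, which encodes myeloperoxidase, stood at 1081, 864 and 1632 TPM. Elane, which encodes neutrophil elastase, stood at 410, 271 and 736 TPM. All 6 genes of this list (with Prtn3, Ctsg, Ms4a3 and Prss57) were lowest in mouse 2, as were 33% of background genes, and none was 2-fold apart between mice 3 and 1. Their median difference between mice 3 and 1 was 0.26 log2 units, against 2.89 for the late genes. The ratio of S100a8 to Mpo was therefore 0.957, 2.93 and 5.30 in mice 1, 2 and 3, and that of Ltf to Mpo was 0.0451, 0.224 and 0.356. In mouse 1 Mpo exceeded S100a8, and in mice 2 and 3 S100a8 exceeded Mpo.

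Other genes of late neutrophil maturation mostly sided with the set. Of 10 such genes, 8 were highest in mouse 3 and 7 had the order of the set, against 20.3% and 9.93% of background genes. Like all lists here, this list was chosen with earlier results of these data known. Its counts are therefore a description and support nothing. Lyz2, which encodes lysozyme, stood at 194, 450 and 1209 TPM, and Chi3l3, a chitinase-like secreted protein now named Chil3, at 139, 222 and 610 TPM. Ly6g, the surface antigen by which mouse neutrophils are usually recognised, stood at 0.429, 6.77 and 28.5 TPM. Its fold difference between mice 3 and 1 was the largest among these genes (66.5-fold), but rests on a mouse 1 value under 1 TPM. The 3 with another order were Hp, lowest in mouse 2 at 50.3 TPM, and Mmp25 and Adam8, both highest in mouse 2 at 10.7 and 187 TPM. These last 3 encode haptoglobin, a membrane-bound metalloproteinase and a disintegrin protease.

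Receptors and products of mature neutrophils were mixed. Of 12 genes, 6 had the order of the set, against 9.93% of background genes. Of the others, 4 were highest in mouse 1, against 48.6% of background genes, and 2 in mouse 2. Fpr1, 1 of the 6 with the order of the set, stood at 0.872, 1.10 and 1.93 TPM. It reached a mean of 1 TPM mainly through mouse 3. Itgam, the alpha chain of the integrin Mac-1, stood at 13.4, 23.6 and 60.0 TPM, and Csf3r, the receptor for granulocyte colony-stimulating factor, at 16.3, 22.6 and 45.6 TPM. Cxcr2, the chemokine receptor that releases mature neutrophils from the marrow, stood at 25.6, 32.4 and 29.3 TPM, with its highest value in mouse 2. Clec4d, Il1r2 and Stfa2l1 were among those highest in mouse 1. Il1r2, a decoy receptor for interleukin-1, stood at 10.2, 3.85 and 3.67 TPM. The list thus held genes on both sides, and its median difference between mice 3 and 1 was 0.82 log2 units.

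Of the 6 NADPH oxidase genes, whose products make superoxide in phagocytes, 5 had the order of the set, against 9.93% of background genes. Rac2 was lowest in mouse 2. Only Cybb, the catalytic subunit and a protein of secondary granule membranes, differed by 2-fold or more between mice 3 and 1, at 33.3, 80.2 and 170 TPM. The other 5 differed by 0.28 to 0.68 log2 units.

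**Figure D3:**
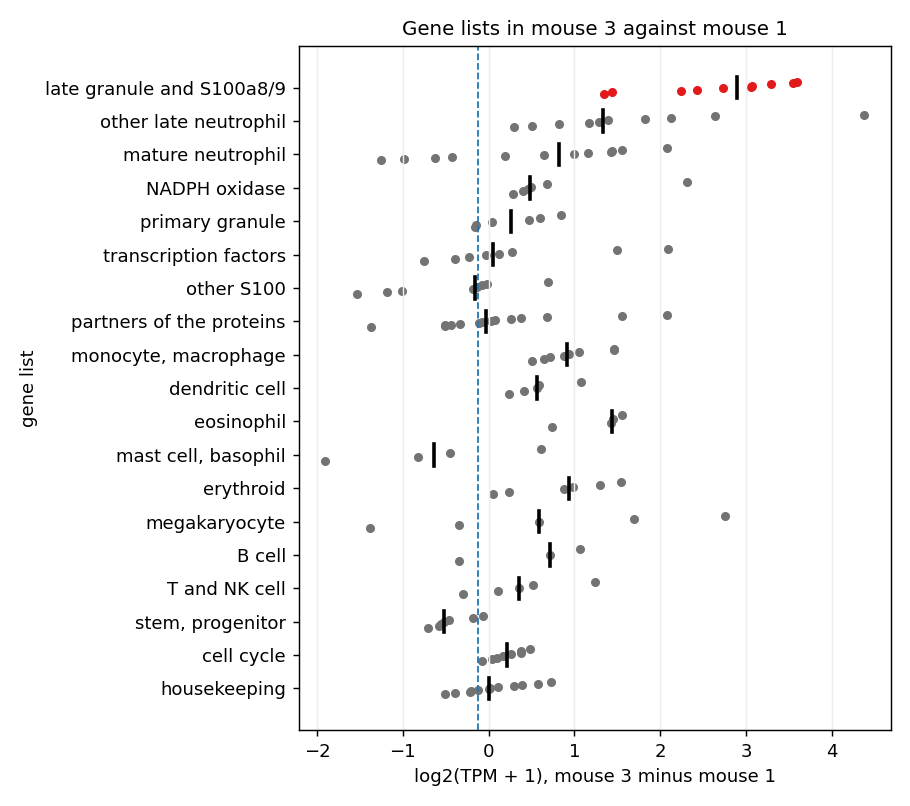
Difference in log2(TPM + 1) of mouse 3 from mouse 1 for every gene with a mean of at least 1 TPM in each list, 1 point per gene, with the list median as a black bar. Red points are the 10 late granule and S100a8/S100a9 genes (median 2.89), and the dashed line is the median of all background genes (-0.13). No other list has a median above that of eosinophil genes (1.44, 4 genes).

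Among transcription factors of granulocyte development, the members of one family went separate ways. Cebpe stood at 12.3, 19.3 and 55.8 TPM and Cebpd at 11.1, 15.2 and 33.2 TPM, both in the order of the set. Cebpa, which acts earlier in granulocyte commitment, had the reverse order at 63.5, 43.7 and 37.2 TPM, and Cebpb was lowest in mouse 2 at 15.3 TPM. The ratio of Cebpe to Cebpa was 0.194, 0.440 and 1.5. Cebpe differed 4.52-fold between mice 3 and 1, more than Mmp8 and Mmp9 and less than the other 8 genes of the set. Ngp per unit of Cebpe was 35.5, 61.9 and 65.2.

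The other regulators did not share this order. Gfi1, a repressor needed for neutrophil formation, was highest in mouse 1 at 33.4 TPM and lowest in mouse 2 at 15.8 TPM. Irf8, which directs progenitors to monocytes and dendritic cells, was highest in mouse 2 at 1256 TPM, against 716 and 775 TPM in mice 1 and 3. Sfpi1, the gene of PU.1 now named Spi1, stood at 185, 264 and 225 TPM, and Runx1 between 77.5 and 96.3 TPM.

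**Figure D4:**
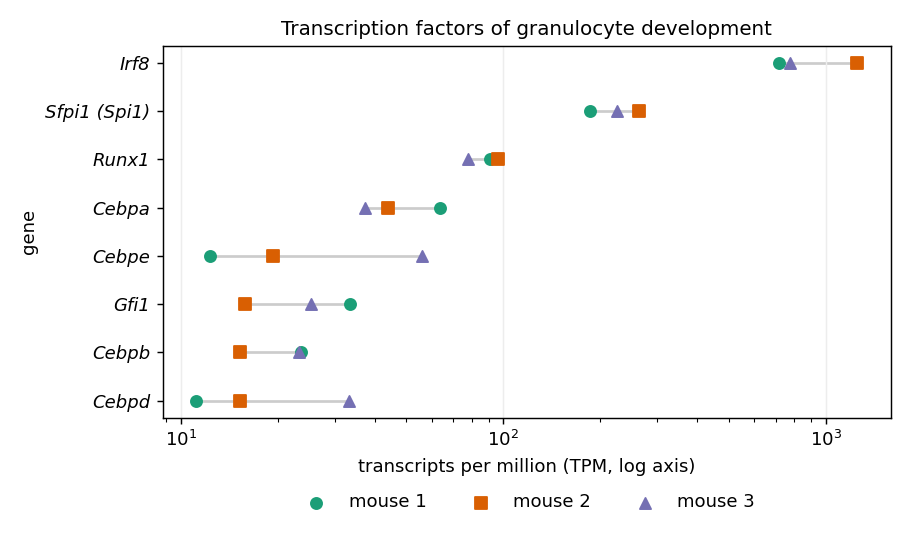
TPM of 8 transcription factors of granulocyte development (log axis), 1 point per mouse, with a grey line from the lowest to the highest mouse. Cebpe and Cebpd run from mouse 1 to mouse 3 as the late granule genes do, Cebpa runs the other way, and Irf8 is highest in mouse 2 at 1256 TPM.

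Genes whose products bind or restrain the proteins of the set mostly differed less than 2-fold between mice 3 and 1. Tlr4, a receptor for S100A8 and S100A9, stood at 10.6, 11.4 and 11.2 TPM, and Ager, another, at 3.61, 2.20 and 2.40 TPM. Pecam1, a ligand of CD177, stood at 41.8, 39.1 and 42.5 TPM. The metalloproteinase inhibitor Timp1 stayed under 1 TPM in all 3 mice, Timp2 was highest in mouse 1 at 11.9 TPM and Timp3 was lowest in mouse 3 at 27.6 TPM. Of the 14 genes of this list with a mean of at least 1 TPM, 2 were at least 2-fold higher in mouse 3 than in mouse 1 (Itgam and Fpr2), against 2.54% of background genes, and 1 at least 2-fold lower (Timp2), against 2.84%. The list's median difference between these mice was -0.03 log2 units, and 0.12 at a common upper quartile. Fpr2, a receptor for the cathelicidin peptide, stood at 3.70, 4.65 and 12.8 TPM.

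None of the 8 other S100 genes with a mean of at least 1 TPM had the order of S100a8 and S100a9 in the values as deposited. Only 9.93% of background genes had that order, so 0 of 8 is near the background share. At a common upper quartile S100a10 and S100a11 had it, against 16.6% of background genes. Of these 8 genes, 6 were highest in mouse 1, against 48.6% of background genes, and 2 in mouse 2. S100a5 (3.42, 0.301 and 0.528 TPM) reached the mean of 1 TPM only through mouse 1. S100a13 (0.048, 22.7 and 0.037 TPM) reached it only through mouse 2. The place of these genes in the counts was therefore set by the filter. S100a4 stood at 537, 306 and 266 TPM, S100a6 at 216, 122 and 94.5 TPM, and S100a10 at 340, 328 and 323 TPM. S100a11, at 489, 793 and 792 TPM, was nearly the same in mice 2 and 3. These directions depend in part on scaling: at a common upper quartile 3 of the 8 (S100a1, S100a10 and S100a11) were highest in mouse 3, and at a common housekeeping level 4 were, though at the upper quartile S100a4 and S100a6 still differed by -0.85 and -1.03 log2 units between mice 3 and 1.

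The genes most like the set over the 3 mice were sought among 9503 others with a mean of at least 10 TPM and no value of 0. Likeness was the Euclidean distance between a gene's log2(TPM + 1) values, centred on their mean, and the mean centred profile of the set, which was -1.29, -0.08 and 1.38. The 10 nearest were Lyz2 (distance 0.030), Pf4, 1100001G20Rik, Cybb, Itgam, Chi3l3, Uty, Orm1, 1810033B17Rik and Cebpe (0.486). Members themselves lay between 0.192 (Lcn2) and 0.946 (Mmp8) from their own mean, and 42 of the 9503 genes lay as near as the farthest member. With 3 mice such a profile has little detail. With a minimum mean of 1 TPM, 4 of these 10 stayed among the nearest 10.

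**Figure D5:**
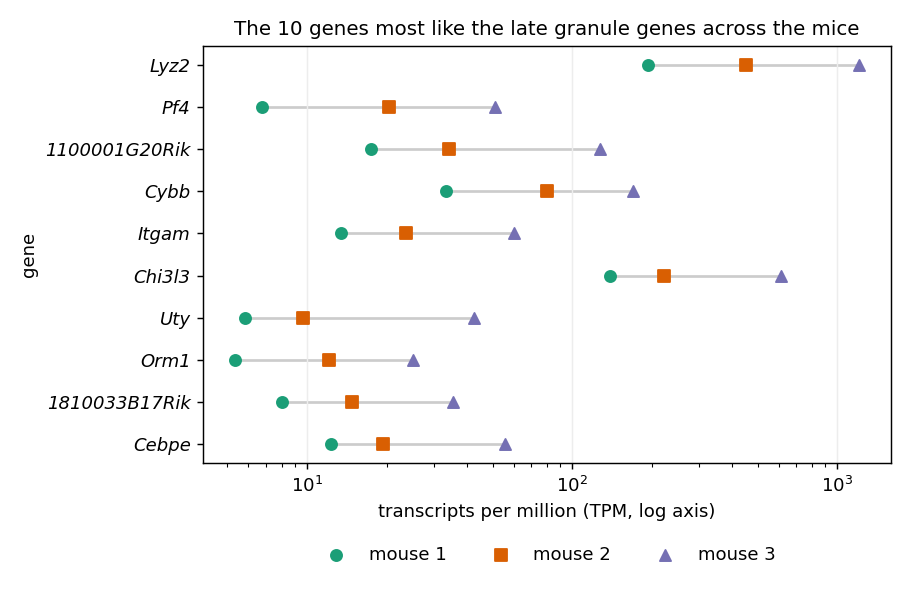
TPM (log axis) of the 10 genes nearest to the mean profile of the set, nearest at the top, 1 point per mouse, with a grey line from the lowest to the highest mouse. All 10 run from mouse 1 to mouse 3, from Uty and Orm1 near 5 TPM in mouse 1 to Lyz2 at 1209 TPM in mouse 3.

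The 10 nearest genes were of several kinds. Lyz2 and Chi3l3 were in the list of other late neutrophil genes above, and Itgam in that of mature neutrophils. Cybb was among the NADPH oxidase genes and Cebpe among the transcription factors. Orm1 encodes an acute-phase plasma protein and stood at 5.32, 12.0 and 25.0 TPM. Pf4, a platelet chemokine, stood at 6.73, 20.4 and 51.0 TPM. Of the 5 megakaryocyte markers, 3 were highest in mouse 3 (Pf4, Ppbp and Gp1bb), against 20.3% of background genes. The other 2 (Itga2b and Gp9) were highest in mouse 1, against 48.6%. Gp1bb, at 1.05, 0.731 and 2.08 TPM, reached a mean of 1 TPM mainly through mouse 3. The 5 markers summed to 66.2, 42.6 and 83.4 TPM. Uty is Y-linked and stood at 5.82, 9.68 and 42.5 TPM. RefSeq now names 1100001G20Rik Wfdc21 and 1810033B17Rik Mcemp1.

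Markers of other cell types were read beside these values, and their part in the differences between mice was not tested. Kit, the gene of the enrichment marker, stood at 139, 149 and 133 TPM. It was lowest in mouse 3 as deposited and lowest in mouse 1 at a common upper quartile. The 10 monocyte and macrophage markers summed to 547, 679 and 964 TPM. Of the 8 with a mean of at least 1 TPM, 6 were highest in mouse 3, against 20.3% of background genes. C1qa and C1qb were below that mean and reached at most 0.719 and 1.36 TPM. Other macrophage genes among these markers were higher. Emr1, now named Adgre1, stood at 12.7, 21.5 and 21.6 TPM, Cd68 at 68.2, 124 and 107 TPM, and Vcam1 at 2.35, 4.49 and 5.94 TPM. Of the 6 eosinophil markers, the 4 with a mean of at least 1 TPM had the order of the set, against 9.93% of background genes. Il5ra (0.512, 1.22 and 0.657 TPM) and Ccr3 (at most 0.118 TPM) were below that mean and lacked the order. The 6 genes summed to 27.2, 43.4 and 73.7 TPM, mostly Prg2 (21.3, 34.2 and 58.7 TPM). Epx, at 0.105, 1.02 and 2.23 TPM, reached that mean mainly through mouse 3. The 5 dendritic cell markers summed to 338, 771 and 512 TPM. All 5 were lowest in mouse 1, against 24.4% of background genes. At least 2-fold higher in mouse 2 than in mouse 1 were 4 of the 5, against 2.55%. The 5 mast cell and basophil markers summed to 87.1, 31 and 35.5 TPM. Of the 4 with a mean of at least 1 TPM, 3 were highest in mouse 1, against 48.6% of background genes. All 6 erythroid markers with that mean were highest in mouse 3 and lowest in mouse 2. They include Hbb-b1, read in place of Hbb-bt although RefSeq does not list it as a synonym. Hbb-bs had no row. Of background genes, 20.3% were highest in mouse 3 and 33% lowest in mouse 2. The 7 T and NK cell markers summed to between 15.2 and 22.2 TPM and the 5 B cell markers to between 12.8 and 16.4 TPM.

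Stem and progenitor markers went the other way or were level. None of 7 was highest in mouse 3 as deposited, which is near the background share of 20.3%. At a common housekeeping level 2 of the 7 were. The 7 genes summed to 839, 676 and 650 TPM. Cd34 stood at 202, 141 and 137 TPM. Of 8 cell cycle genes, 7 were highest in mouse 3 as deposited, against 20.3% of background genes. At a common upper quartile 8 were, against 32.3%. The amounts were small: Mki67 stood at 143, 133 and 201 TPM, and the list's median difference between mice 3 and 1 was 0.21 log2 units. The ratio of S100a8 to Kit was 7.42, 17.0 and 64.9 in mice 1, 2 and 3.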

How the data were processed

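Expression was read from 1 table that the authors deposited, with 1 value per gene symbol and mouse. Although labelled log2 FPKM, the values are linear, are never negative and sum to 929731, 927169 and 928490 in mice 1, 2 and 3. The values deposited by the authors were therefore read as TPM. The submitters' processing notes name kallisto and mm10, and the kallisto version and annotation are not given in the sources used here. The labels name both ribosome depletion and an mRNA kit. TPM keeps no depth, so no counting interval can be given, and the spread between mice is the only error.

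The table also holds 3 per-sample columns that match no sample of the series and were not used. Rows without a gene symbol (795) or with a date in its place (27) held 0.785%, 0.734% and 0.787% of the column sums and were left out. Values of 90 symbols on several rows were summed, none of them among the 10 genes.

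The 10 genes and all lists were chosen with earlier results of these data known. With 1 group no test was possible. Fold is a ratio of TPM, and differences are on log2(TPM + 1). Genes outside the set were named from the lists or as the 10 nearest in profile. Promoter windows, gene positions and transcripts came from RefSeq GRCm38.p6 and GENCODE M21, and transcripts were compared with blastn 2.17.0 at a minimum of 80% identity over 100 bases. The profile search was tested on simulated data. Alternatives covered the pseudocount, 3 other scalings, the background filter and each mouse left out. Python 3.11.15, numpy 2.4.6, pandas 2.3.3 and matplotlib 3.10.9 were used. The values of 1 gene of the mature neutrophil list are not reported here.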

Additional observations from a re-analysis of the deposited data

How the results depend on the processing

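No paired analysis was possible because the 3 mice form a single group. The order of the mice held for all 10 genes under upper-quartile scaling, rescaling without mitochondrial genes and AY036118, and housekeeping scaling, the last chosen after seeing the data for this count. The median difference between mice 3 and 1 was 2.89 log2 units, and 2.93 to 3.23 under another pseudocount or scaling. The number at least 2-fold higher in mouse 3 than in mouse 2 was 8, and 10 with a pseudocount of 0.1, at a common upper quartile or at a common housekeeping level. The median level of the set ranged from 7.18 without mouse 3 to 8.83 without mouse 1, and its mean share of the summed TPM from 0.483% without mouse 3 to 1.51% without mouse 1, so mouse 3 carried more than any other mouse of that share. All 60 recomputed levels of single members shifted by under 1 SD between mice, as did 100 of 108 list levels. The other 8 list levels shifted further. These counts are a weak check, since the SD of single members reached 1.80 log2 units (Camp). Leaving out 1 of 3 mice cannot shift a mean by 1 SD, so that part of the counts was fixed in advance. The background share highest in mouse 3 was 18.3% over genes with a mean of at least 10 TPM. The 10 nearest genes were the same 10 at a common upper quartile, an alternative chosen after seeing the data. Depth is unknown, so counting error in low genes such as Mmp8 and Mmp9 cannot be stated.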
